A study of Homo sapiens with 2 samples.

Results

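The pre-B cell receptor (pre-BCR) components examined in the BCP-ALL cell lines REH and 697 were IGLL1, VPREB1, VPREB3, IGHM, CD79A and CD79B. These 6 genes were chosen by name, and each symbol matched 1 gene ID among the 57773 gene IDs counted. All 6 reached the minimum of 10 reads in a library that 19145 genes met, but VPREB1 did so through 697 alone. REH is a B-cell precursor acute lymphoblastic leukemia line that carries the ETV6/RUNX1 fusion and lacks the other ETV6 allele. 697 is a line of the same disease without that fusion. Both lines were grown in RPMI with fetal bovine serum, no treatment is named, and 1 RNA library stands for each line. Differences between cultures are therefore unknown, and no test between the lines was possible. Intervals are 95% counting intervals, they cover counting error only, and every ratio compares these libraries and not the lines in general.

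The pre-BCR is the checkpoint receptor of the large pre-B cell. A newly rearranged mu heavy chain pairs with the surrogate light chain, made of the VPREB1 and IGLL1 (lambda5) proteins, which stands in for a light chain that has not yet been rearranged. The complex signals through the CD79A and CD79B chains, whose cytoplasmic tyrosine motifs recruit SYK. EBF1, E proteins and PAX5 are known regulators of these genes in early B cells.

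The promoter stretches of 4 of the components are shown, to set genes with different ratios between the lines side by side. The promoters of IGHM and CD79B are not analysed here. VPREB1 and IGLL1 encode the partners in one surrogate light chain, VPREB3 is their relative with a similar level in both libraries, and CD79A was higher in REH. Each line gives the 250 bases before the RefSeq start of the gene, 5′ to 3′ on the strand of the gene, from RefSeq on GRCh38.p14 (chr22:22244536-22244785 on the plus strand for VPREB1, chr22:23580291-23580540 on the minus strand for IGLL1, chr22:23754426-23754675 on the minus strand for VPREB3 and chr19:41877029-41877278 on the plus strand for CD79A). Distances of motifs are counted from these RefSeq starts, which for VPREB1 and IGLL1 lie a few bases inside the GENCODE starts given with their values. Capitals mark matches to the motifs named after the sequences.
VPREB1: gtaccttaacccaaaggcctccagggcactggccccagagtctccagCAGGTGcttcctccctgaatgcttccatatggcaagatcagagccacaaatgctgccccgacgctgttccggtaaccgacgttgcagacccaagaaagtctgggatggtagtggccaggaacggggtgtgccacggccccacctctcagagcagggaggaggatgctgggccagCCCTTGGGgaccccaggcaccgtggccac
IGLL1: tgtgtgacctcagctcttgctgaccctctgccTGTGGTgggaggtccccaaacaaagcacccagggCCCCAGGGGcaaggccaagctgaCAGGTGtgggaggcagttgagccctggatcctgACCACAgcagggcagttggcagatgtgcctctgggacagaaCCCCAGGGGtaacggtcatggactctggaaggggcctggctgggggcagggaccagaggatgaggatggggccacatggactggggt
VPREB3: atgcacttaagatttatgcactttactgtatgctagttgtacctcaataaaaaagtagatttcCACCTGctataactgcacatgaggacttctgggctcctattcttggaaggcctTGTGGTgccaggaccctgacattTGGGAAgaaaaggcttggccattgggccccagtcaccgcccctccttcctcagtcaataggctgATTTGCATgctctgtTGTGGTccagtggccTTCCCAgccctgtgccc
CD79A: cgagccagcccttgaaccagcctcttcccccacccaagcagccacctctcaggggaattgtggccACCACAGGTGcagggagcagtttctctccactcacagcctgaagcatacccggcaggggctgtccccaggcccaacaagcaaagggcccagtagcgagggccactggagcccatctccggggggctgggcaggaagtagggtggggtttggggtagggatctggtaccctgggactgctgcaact

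The motifs were searched on both strands. The E-box CAGGTG, a sequence bound by E proteins, was found once in each of the 4 stretches and in 17.5% of 35116 promoter stretches of the same length. The core CCCNNGGG of the EBF1 site was present in VPREB1, starting 29 bases before the gene, and in IGLL1 at 2 places, starting 184 and 87 bases before it, where each place holds 2 overlapping matches. It was not found in the stretches of VPREB3 and CD79A, and 17.1% of all stretches hold it. The RUNX motif TGTGGT was found in IGLL1, VPREB3 and CD79A and in 11.0% of all stretches, and in CD79A its match overlaps the E-box. The octamer ATGCAAAT was found in VPREB3 alone of the 4, starting 47 bases before the gene, and in 1.63% of all stretches. VPREB3 also held the Ikaros-type motif TGGGAA at 2 places, which 20.8% of stretches hold. A second E-box, CAGCTG, was in none of the 4 and in 14.0% of all. A match is a string of letters and does not show binding. Only these exact strings were searched, so a missing match does not show that a site is absent.

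VPREB1 set the libraries apart more than any other component. It lies within the immunoglobulin lambda locus (GENCODE release 44 on GRCh38, chromosome 22, 22244780 to 22245515, plus strand, 650 bases of exon). There were 3 reads for VPREB1 in REH and 10039 in 697. This amounts to 0.0597 CPM, or reads per 1000000 scaled gene reads, in REH (exact Poisson interval 0.0123 to 0.174) and to 272 CPM in 697 (266 to 277). The level in 697 was 4553 times that in REH, with a counting interval of 1557 to 22080.2, and the log2 ratio of REH over 697, with 0.5 reads added to each count, was -11.93 (-14.43 to -10.60). Of all genes compared, 31 had a lower ratio. The 3 reads in REH equal the smallest level taken as detectable at this depth, so the size of the ratio rests on them. In cell lines as in other bulk samples, fewer cells that express a gene and less RNA per cell cannot be told apart.

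The other surrogate light chain gene, IGLL1 (chromosome 22, 23573125 to 23580302, minus strand), was abundant in both libraries. It had 14635 reads or 291 CPM in REH (286 to 296) and 18608 reads or 504 CPM in 697 (496 to 511). The log2 ratio was -0.79 (-0.82 to -0.76), so that IGLL1 was 1.73 times as high in 697. REH thus had IGLL1 reads in number and almost none of VPREB1.

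VPREB3, whose protein binds free mu heavy chains inside the cell, lies 174 kb from IGLL1 (chromosome 22, 23752743 to 23754425, minus strand). It had 11255 reads or 224 CPM in REH (219.8 to 228) and 9725 reads or 263 CPM in 697 (258 to 269). Its log2 ratio of -0.23 (-0.27 to -0.19) was the smallest of the 6 in size. The sign turned, to 0.074, when library totals were not scaled, a setting that also moved the median of all genes by 0.31, from 0.05 to 0.36.

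The heavy chain and the signalling chains moved in opposite directions between the libraries. IGHM, the constant region of the mu heavy chain (chromosome 14, 105851705 to 105856218, minus strand), had 29748 reads or 592 CPM in REH (585 to 599) and 51738 reads or 1400.4 CPM in 697 (1388 to 1412). It was 2.37 times as high in 697, with a log2 ratio of -1.24 (-1.26 to -1.22). CD79A (chromosome 19, 41877279 to 41881372, plus strand) was higher in REH, with 32911 reads or 655 CPM against 10614 reads or 287 CPM in 697 and a log2 ratio of 1.19 (1.16 to 1.22). CD79B (chromosome 17, 63928738 to 63932336, minus strand) was also higher in REH, with 24198 reads or 481 CPM against 4443 reads or 120.3 CPM. Its log2 ratio was 2.0 (1.95 to 2.05), a 4.0-fold difference that sits at the threshold used for calls.

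**Figure D1:**
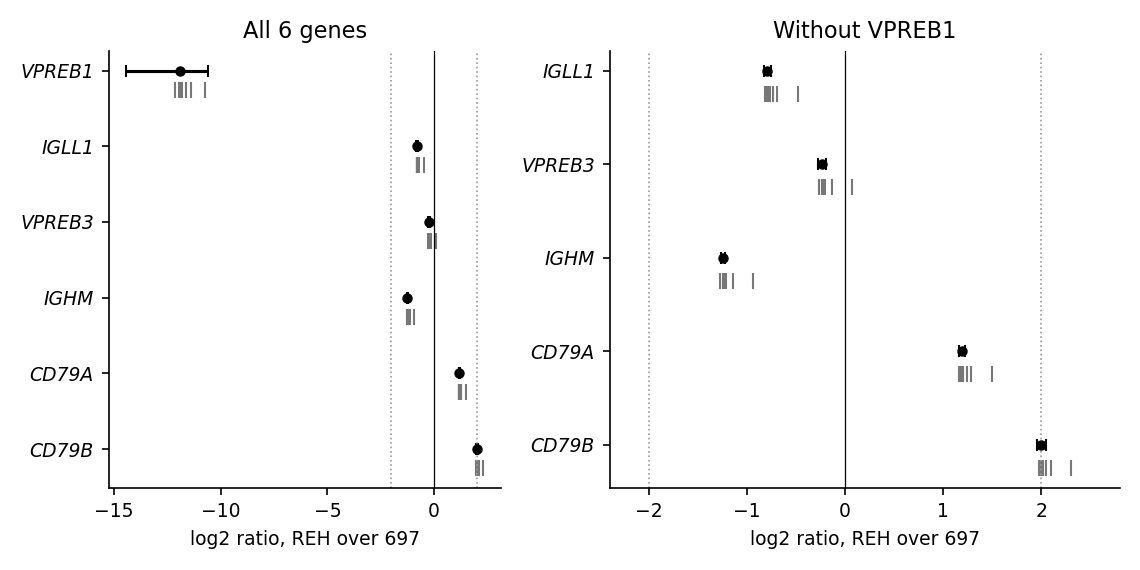
Log2 ratio of REH over 697 for each pre-BCR component, with all 6 genes on the left and VPREB1 left out on the right. Black points with bars give the value and its 95% counting interval, grey ticks below give the 9 alternatives of processing, and dotted lines mark a ratio of 2 in size. VPREB1 lies at -11.93, CD79B at 2.0 on the dotted line, and a tick of VPREB3 crosses 0.

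The threshold for calling a gene higher in 1 of the lines was a log2 ratio of 2 or more in size. Among all 19145 genes compared, 20.7% passed in either direction, 12.5% as higher in REH and 8.15% as higher in 697. Of the 6 components 2 passed, namely CD79B as higher in REH and VPREB1 as higher in 697. The call of CD79B was lost with DESeq2 size factors (log2 ratio 1.97), and its counting interval spans the threshold. The log2 ratio was above 0 for 2 of the components and below 0 for 4, and their median was -0.51 against 0.05 over all genes. Without scaling of totals, the 6 genes together took a similar part of each library, with 0.250% of gene reads in REH and 0.256% in 697. With scaled totals they summed to 2243 CPM in REH and 2846 CPM in 697.

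Levels of different genes were compared per length, as reads per kb of exon per 1000000 scaled gene reads (RPKM). In 697 the order was IGHM at 748 RPKM (742 to 755), IGLL1 at 561 (553 to 569), VPREB3 at 464 (455 to 474), VPREB1 at 418 (409.9 to 426), CD79A at 214 (209.7 to 218) and CD79B at 56.6 (54.9 to 58.3). No 2 neighbours in that order overlapped in their counting intervals. In REH the order was CD79A at 487 RPKM (482 to 492), VPREB3 at 395 (388 to 402), IGLL1 at 324 (319 to 329.5), IGHM at 316 (313 to 319.9), CD79B at 227 (224 to 229) and VPREB1 at 0.0918 (0.0189 to 0.268). Here the intervals of IGLL1 and IGHM overlapped, with reads counted on either strand. Counted on each strand separately, IGLL1 in REH had 355 and 341 RPKM, and IGHM had 292 and 302.

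The heavy chain thus led in 697 and CD79A led in REH. Among 13489 protein-coding genes, the RPKM of VPREB1 exceeded 8.12% in REH and 99.6% in 697. Each other component exceeded at least 99.6% of them in REH, and in 697 the lowest, CD79B, exceeded 95.6%. The length chosen matters for CD79B, which reached 384 RPKM in REH and 95.9 in 697 when the longest transcript replaced the union of exons. With that length CD79B moved from rank 5 to rank 3 in REH, IGHM (351) passed IGLL1 (329.7), and the order in 697 stayed as given.

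**Figure D2:**
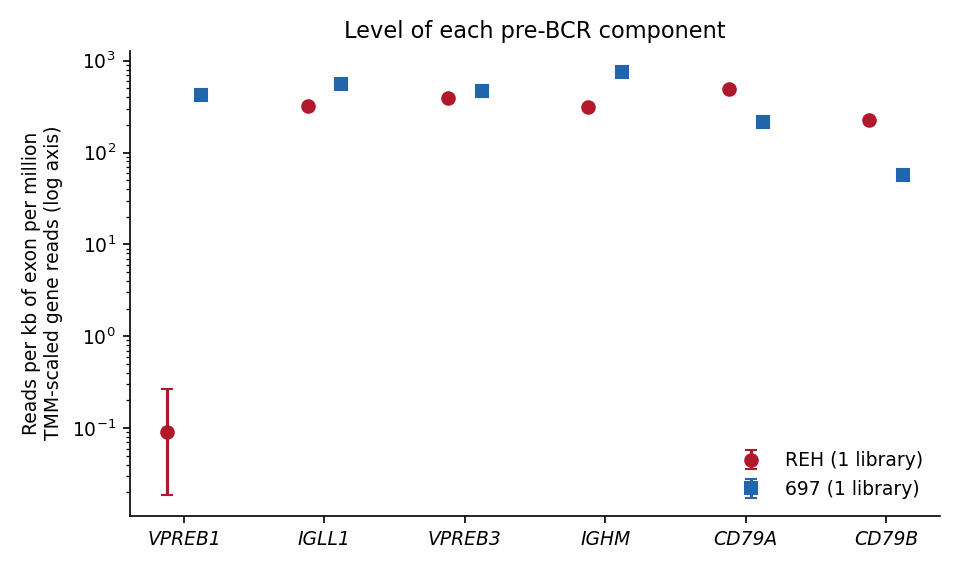
Level of each pre-BCR component in REH (circles) and 697 (squares), in reads per kb of exon per 1000000 TMM-scaled gene reads on a log axis. Bars are 95% Poisson counting intervals of 1 library each and are hidden by most points. VPREB1 in REH lies at 0.0918, whereas the other 11 values lie between 56.6 and 748.

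To compare components without any scaling of library totals, the split of reads between 2 genes was taken within each library. Of the reads of IGLL1 and VPREB1 together, VPREB1 held 35.0% in 697 (exact binomial interval 34.5% to 35.6%) and 0.0205% in REH (0.00423% to 0.0599%). These shares use counts on either strand, with IGLL1 at 65.0% in 697 (64.4% to 65.5%). Counted on each strand separately, IGLL1 held 68.3% and 66.9% of the pair in 697, outside that interval. The odds of an IGLL1 read against a VPREB1 read were 2632 times as high in REH (exact conditional interval 899.9 to 12766). VPREB1 and VPREB3 had nearly equal reads in 697, where VPREB1 held 50.8% (50.1% to 51.5%), against 0.0266% in REH (0.00550% to 0.0779%). The split of IGLL1 and VPREB3 differed far less, with IGLL1 at 56.5% in REH (55.9% to 57.1%) and 65.7% in 697 (65.1% to 66.2%).

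For the signalling chains, CD79A held 57.6% of the CD79A and CD79B reads in REH (57.2% to 58.0%) and 70.5% in 697 (69.8% to 71.2%). Both CD79 genes had more reads in REH, and CD79B had the larger ratio of the pair. IGHM held 47.5% of the IGHM and CD79A reads in REH (47.1% to 47.9%) and 83.0% in 697 (82.7% to 83.3%), so its odds were 5.39 times as high in 697 (5.25 to 5.54). Against IGLL1, IGHM held 67.0% in REH (66.6% to 67.5%) and 73.5% in 697 (73.2% to 73.9%), a difference in odds of 1.37 times (1.33 to 1.40). IGHM and IGLL1 thus stayed closer to each other than either did to CD79A or VPREB1.

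**Figure D3:**
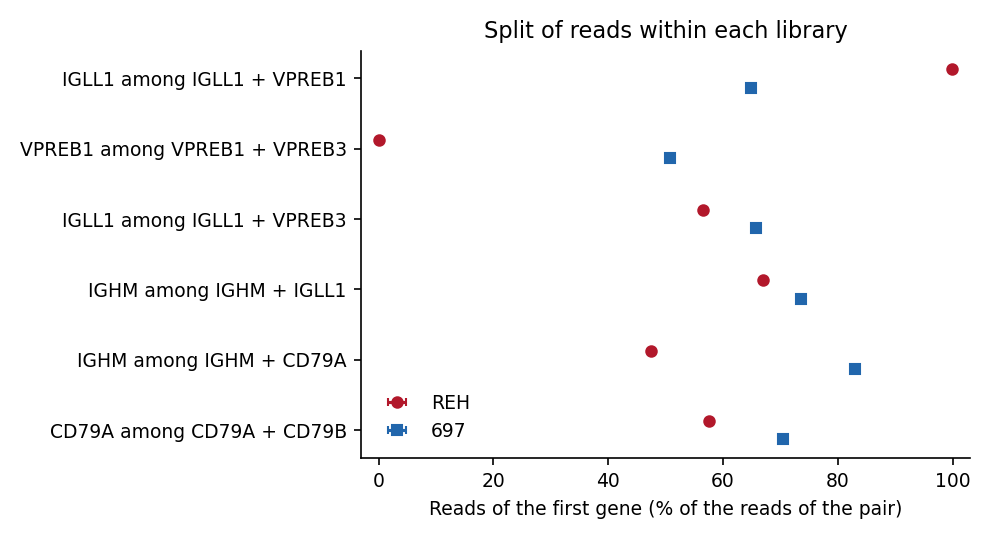
Reads of the first gene as a percentage of the reads of both genes of a pair, in REH (circles) and 697 (squares), with 95% exact binomial intervals that are mostly hidden by the points. VPREB1 goes from 50.8% of its pair with VPREB3 in 697 to 0.0266% in REH, and IGHM goes from 83.0% of its pair with CD79A to 47.5%.

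Counts of a gene can include or lose reads through overlapping and similar genes. The labels call the libraries stranded, but reads fell almost evenly on both strands. The share in the first stranded column was between 48.9% and 51.7% for every component with over 3 reads in a library. For IGLL1 the stranded columns summed to 16710 reads in REH and 20982 in 697, which is 2075 and 2374 reads above the count on either strand. A lncRNA gene on the opposite strand overlaps the end of IGLL1 by 383 bases, and a read that lies in genes of both strands is ambiguous when strands are pooled. Whether this overlap accounts for the difference was not tested. The difference made up 12.4% of the summed IGLL1 reads in REH and 11.3% in 697. For the other components the sums differed by at most 1 read.

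Of all 50-base windows in annotated IGLL1 transcripts, 8.29% also occur in transcripts of other genes, including the pseudogene IGLL3P and the lambda constant region IGLC1, and reads confined to them would not be counted as unique. For CD79B, 11.1% of windows occur in an annotated readthrough gene, not analysed here, that overlaps CD79B itself on the same strand by 2648 bases and is thus no second copy elsewhere. VPREB1, VPREB3, IGHM and CD79A shared no window with another gene.

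The surroundings of the genes were examined within 500 kb. Protein-coding neighbours of VPREB1 included PPM1F (5161 reads in REH and 2888 in 697) and TOP3B (2930 and 1999) on one side and PRAME (584 and 0) on the other. None of these 3 was lower in REH, and their log2 ratios ran from 0.11 to 9.75, where the last is that of PRAME and depends on the 0.5 reads added to a count of 0. The nearest counted genes downstream, a lncRNA 49.0 kb away and the pseudogene BMS1P20 58.4 kb away, were read more in 697, at 143 and 181 reads compared with 60 and 79 in REH. The lambda variable segment IGLV3-21, 467 kb downstream, had 2975 reads in REH and 0 in 697. The near absence of VPREB1 reads in REH was therefore not shared by all of its neighbours. DNA copy number was not measured in these files.

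For IGLL1 and VPREB3, which lie close together, no protein-coding neighbour passed the threshold. The ratios of 15 neighbours of IGLL1 ran from -0.88 to 1.75 and those of 13 neighbours of VPREB3 covered the same range. A lncRNA whose start lies 3.56 kb upstream of that of IGLL1 on the same strand had 5738 reads in REH and 4784 in 697. Near CD79B, 3 of 18 protein-coding neighbours were higher in REH, beside 12.5% of all genes compared. The adjacent sodium channel gene SCN4A had 13398 reads in REH and 469 in 697, ERN1 had 4608 and 666, and CYB561 had 37 and 0. Of the 23 neighbours of CD79A, DMRTC2 (62 and 0 reads) and TMEM145 (0 and 37) passed, 1 in each direction. IGHM had 6 protein-coding neighbours that met the minimum of reads. Of these, CRIP1 (128 and 1 reads) was higher in REH, and CRIP2 (4 and 179) and TMEM121 (32 and 703) were higher in 697. For comparison, 12.5% of all genes compared were higher in REH and 8.15% in 697, which makes 20.7% in either direction.

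**Figure D4:**
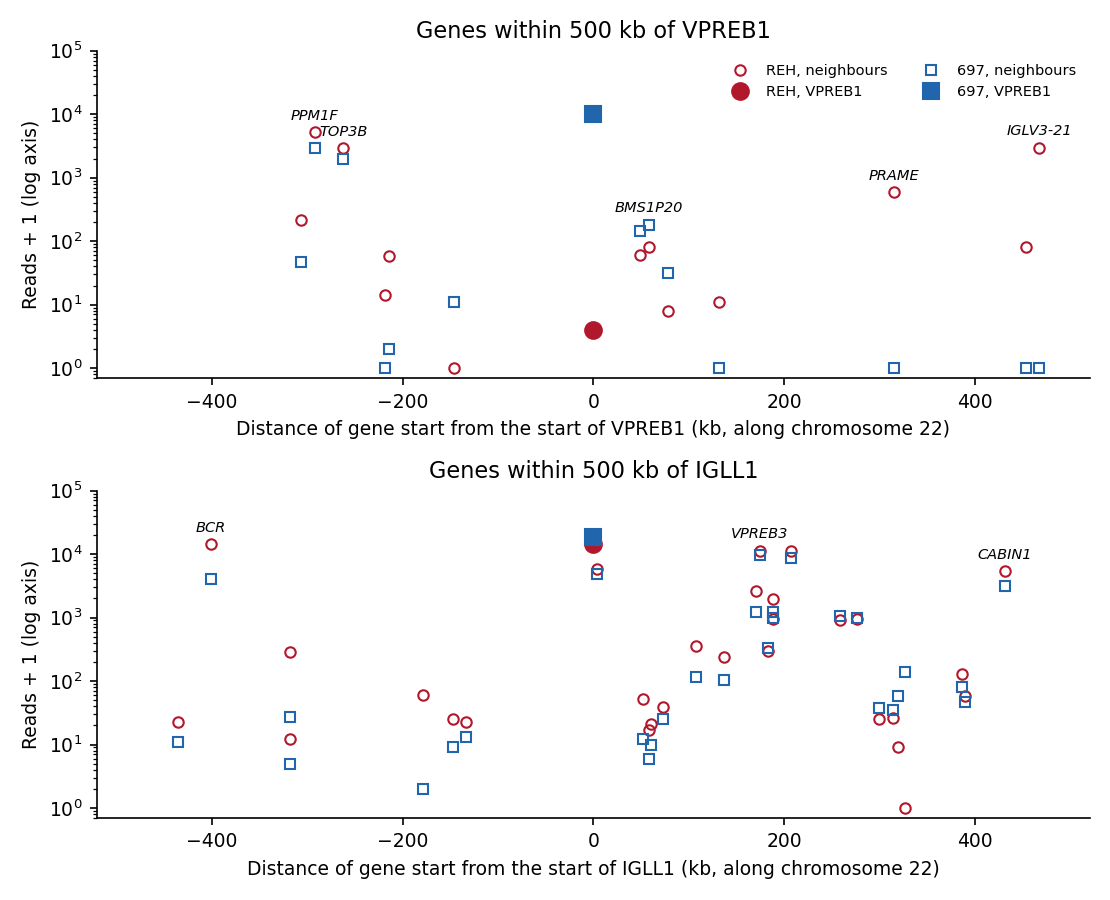
Reads plus 1 on a log axis for genes of any type that start within 500 kb of VPREB1 (top) and IGLL1 (bottom) and met the minimum of 10 reads, apart from a gene not reported here, against the distance between gene starts in kb. Circles are REH and squares 697, and filled symbols mark VPREB1 or IGLL1. VPREB1 had 3 reads in REH and its most read neighbour drawn, 292 kb away, had 5161, whereas IGLL1 was abundant in both.

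Reads of IGHM do not tell a rearranged mu transcript from a transcript of the unrearranged locus, so segment genes were inspected as well, a step chosen after the values of IGHM were seen. The 51 heavy chain variable segments matched by gene ID had 1492 reads in REH and 10682 in 697. This is 5.02 and 20.6 reads per 100 IGHM reads. In REH the most read was IGHV3-15 with 740 reads, which had 0 in 697. In 697 it was IGHV2-26 with 8265 reads, which had 1 in REH. Each library was thus led by a different one of the matched variable segments. IGHV3-30, IGHV4-4 and some other annotated segments had no matching ID in the counts, so their reads are not included. IGHD, the delta constant region spliced from the same primary transcript, had 1820 reads in REH and 9397 in 697, a log2 ratio of -2.81 (-2.89 to -2.74).

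Light chain genes were inspected because the surrogate light chain precedes them. Of 14 other constant regions and light chain relatives, 6 reached 10 reads, of which 3 were higher in each line, with a median log2 ratio of -0.18. Among all genes compared, 12.5% were higher in REH and 8.15% in 697. Higher in REH were IGLC3 (649 and 7 reads), IGLC7 (980 and 14) and IGHG3 (18 and 2). Besides IGHD, IGLL5 (1 and 1346) and IGLC2 (0 and 24) were higher in 697. IGKC had 0 reads in both, below the smallest level taken as detectable, which was 0.0597 CPM in REH and 0.0812 CPM in 697. IGLL5, a close relative of IGLL1 in the lambda locus, thus differed in the same direction as VPREB1. The lambda genes resemble one another, and the share of reads lost or split between them was not tested.

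Of 11 genes for proteins that fold the heavy chain, none passed the threshold, beside 20.7% of all genes, and the median log2 ratio was 0.03. HSPA5 (BiP), which holds unpaired heavy chains, had 229 CPM in both libraries. The log2 ratios ran from -0.65 for PDIA6 to 1.57 for DNAJB9, which was 2.96 times as high in REH.

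Of 20 proximal signalling genes, which act after the receptor is engaged, 3 passed, beside 20.7% of all genes. Higher in REH were PLCG2, the phospholipase that raises calcium (20493 and 1915 reads, log2 ratio 2.98), and BTK, the kinase that activates it (8730 and 872 reads, 2.88). Higher in 697 was the SRC-family kinase LYN (577 and 2889 reads, -2.77). SYK, which docks on the CD79 tails, had a log2 ratio of 1.5 and the adaptor BLNK of -1.21, neither past the threshold. The median of the list was 0.16. LGALS1, or galectin-1, a ligand of the pre-BCR, was read 106 times in REH and 2598 times in 697, a log2 ratio of -5.05.

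Of 19 transcription factors of the early B lineage, 3 passed, beside 20.7% of all genes, and the median log2 ratio was 0.12. SPI1 (PU.1) was higher in REH (2810 and 19 reads), and IKZF3 (13 and 314 reads) and IRF8 (320 and 953 reads) were higher in 697. IRF8 lay at the threshold with a ratio of -2.02 (-2.21 to -1.83), and its call was lost without scaling. Of the known regulators, EBF1 had 359 CPM in REH and 328 in 697 (log2 ratio 0.13), and PAX5 had 792 and 1224 CPM (-0.63). The E proteins were TCF3 with 671 and 708 CPM (-0.08), TCF12 with 191 and 276 CPM (-0.53) and TCF4 with 102 and 381 CPM (-1.89). TCF4 was thus 3.71 times as high in 697, below the threshold. None of the 3 recombination enzyme genes passed, although DNTT, which adds bases at junctions, came to -1.96 and RAG1 to 1.41.

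**Figure D5:**
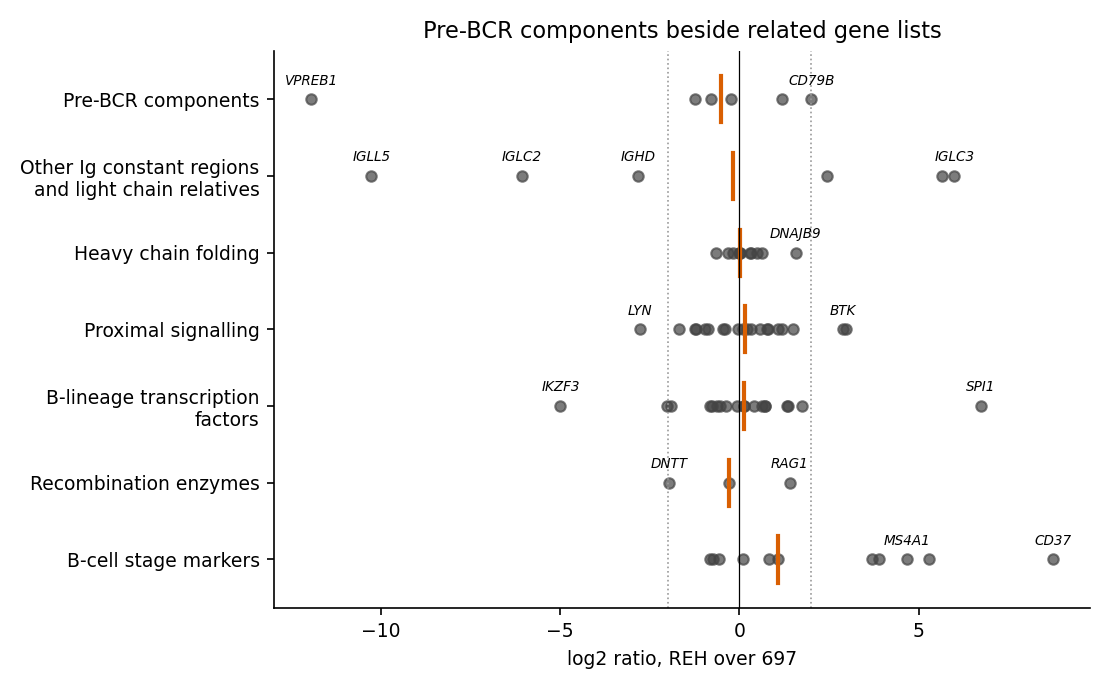
Log2 ratio of REH over 697 for the pre-BCR components and 6 related lists, for genes that met the minimum of 10 reads. Each point is a gene, orange bars are list medians and dotted lines mark a ratio of 2 in size. VPREB1 and IGLL5 lie farthest to the left, and the heavy chain folding genes all lie between the dotted lines.

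The B-cell label of the lines was checked with markers. CD22 had 216 CPM in REH and 359 CPM in 697, and both libraries had CD38, MME and IL7R reads in number. Among all genes compared, 12.5% were higher in REH and 8.15% in 697. Of 11 B-cell stage markers with at least 10 reads, 5 were higher in REH, namely MS4A1 (670 and 19 reads), CD34 (26 and 0), CD37 (289 and 0), FCER2 (110 and 5) and CD40 (539 and 30). Of 7 T-cell markers 2 reached 10 reads and both, CD247 (498 and 87 reads) and CD3E (45 and 0), were higher in REH. T-cell markers summed to 10.9 CPM in REH and 2.38 CPM in 697, and CD3D, CD2 and CD7 had 0 reads in both. Of 7 myeloid markers 5 reached 10 reads and 4 of them were higher in REH, namely MPO, ITGAM (403 and 0), CSF3R (920 and 32) and CD33 (22 and 1). The 7 together summed to 279 CPM in REH and 1.49 CPM in 697, of which MPO made up 12643 reads in REH and 12 in 697, while ELANE had 0 and LYZ at most 2. The 4 plasma cell markers summed to 276 and 628 CPM, with SDC1 (2677 and 3 reads) higher in REH and JCHAIN (4 and 8797) and PRDM1 (48 and 200) higher in 697. Most of each sum came from the plasma cell marker that did not pass, at 221 CPM in REH and 384 CPM in 697. The 5 erythroid markers came to 21 reads in REH and 17 in 697, with HBB and HBA1 at 0 in both. The part of these differences in the pre-BCR values was not tested.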

How the data were processed

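RNA of the lines REH and 697 was sequenced, and the 2 libraries were assigned by the cell line label. The deposited values are raw read counts per gene from STAR, made by the authors from uniquely mapped reads and neither normalized nor filtered. The study's methods name hg38 and the submitters' processing notes name hg19, and the annotation release is not given in the sources used here. The methods describe poly-A purification and the labels ribodepletion. The libraries held 63954817 reads in REH and 58948890 in 697, of which 45188375 and 41097497 were counted in genes. The 4 rows that name no gene (29.3% and 30.3% of reads) stayed out of totals, and multimapping reads were 10.8% and 15.4%.

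Counts on either strand were used. Gene IDs were matched to GENCODE 44 (51996 matched, 5777 did not), from which lengths and positions were taken. Totals were scaled with TMM in edgeR 4.0.16 (R 4.3.3), with factors of 1.11 and 0.899, over genes that reached 10 reads in either library. Log2 ratios had 0.5 reads added. Ratio intervals are Clopper-Pearson intervals of the share of reads from REH, and Poisson intervals were used for levels. Duplicate reads are not independent molecules. The smallest detectable level was set at 3 reads. DESeq2, the tool of the study, tests replicated groups and gave no p-value here. Its size factors (DESeq2 1.42.0), other scalings, minima, pseudocounts, a threshold of 1 and each strand column were alternatives. The pair of IGLL1 and VPREB3 was added after seeing the data. Members and lists were chosen with earlier results of these data known. Genes named are the 6 components, list genes past the threshold, neighbours within 500 kb and the 3 protein-coding genes closest to each component. Others given were chosen after their values were seen. A neighbouring gene and a marker are not reported here. The ratio step was tested on simulated data. Python 3.11.15, scipy 1.17.1 and pandas 2.3.3 were used.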

Additional observations from a re-analysis of the deposited data

Results flagged for a closer look

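The stranded columns of the files were not used for the ratios. For IGLL1 they held 2075 reads in REH and 2374 reads in 697 beyond the count on either strand, well above 3 reads. With the first stranded column the log2 ratio of IGLL1 was -0.77 and with the second -0.74, against -0.79 with strands pooled. The IGLL1 share of IGLL1 and VPREB1 reads in 697 was 68.3% and 66.9% in these columns, against 65.0% pooled. In REH, IGLL1 had 355 and 341 RPKM in these columns, against 324 pooled, and IGHM had 292 and 302, against 316.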

How the results depend on the processing

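No paired analysis was possible because a lone library stands for each line, and no library could be left out. The directions of IGLL1, VPREB1, IGHM, CD79A and CD79B were kept under the 9 alternatives run for each. Their log2 ratios ran from -0.82 to -0.48, -12.13 to -10.74, -1.27 to -0.94, 1.16 to 1.5 and 1.97 to 2.31. VPREB3 ran from -0.26 to 0.074, its sign turning without scaling (0.074), where the median of all genes shifted by 0.31. Of the 6 components, 1 passed the threshold with DESeq2 size factors, with 5 reads added and in the first stranded column, with 0 higher in REH in each case, since CD79B fell just below 2. At a threshold of 1, 4 passed, 2 in each direction. The median of the components was -0.20 without scaling, -0.42 with upper-quartile factors and -0.47 in the second stranded column. The number of transcription factors higher in 697 was 1 in each of 4 alternatives, namely no scaling, upper-quartile factors, a minimum of 50 reads and the first stranded column, and 2 were higher in REH without scaling. The depth limits what can be said of genes at 0 to 3 reads, VPREB1 in REH included.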

Other observations

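The protein-coding genes closest to each component in both libraries were looked up among 11534 genes that reached 100 reads in either library. The distance is that between pairs of log2 CPM, over 2 libraries only, so it describes similar levels and nothing more. Closest to VPREB1 were LAPTM4B (3 reads in REH and 10036 in 697, distance 0.00043), TRIB2 (3 and 7949, distance 0.34) and JCHAIN (4 and 8797, distance 0.41). These genes reached 100 reads through 697 alone. Their REH counts, like that of VPREB1, lie at or near the smallest detectable level, so such small distances are within counting error. JCHAIN encodes the chain that joins secreted IgM and IgA, and it was among the plasma cell markers inspected. Closest to IGLL1 were APEX1, RAN and LBR, closest to VPREB3 were PRKAR1A, COL27A1 and YY1, and closest to IGHM were NACA, EEF1A1 and MT-ND4L. CD79A was closest to PPP1R18, DOK3 and CUX1. CD79B was closest to TFDP2, HLA-DRB1 and SH3GLB2, at distances of 0.14 to 0.36.

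The lambda variable segments matched by gene ID had 3499 reads in REH and 47 in 697, whereas the matched kappa variable segments had 52 and 11. Of the kappa reads, 51 in REH were of the segment IGKV1OR2-108 and 9 in 697 were of IGKV2D-40. In REH, 6 of 36 lambda variable segments had at least 10 reads, and 2 did in 697. REH thus had reads of lambda variable and constant genes beside 3 reads of VPREB1, and 697 had few lambda variable reads beside 10039 reads of VPREB1. These are 2 libraries, and no relation between the genes was tested.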
